A study of Mus musculus with 16 samples.

Results

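The genes described here encode enzymes that break down branched-chain and other amino acids, together with glutamine synthetase, which stores amino nitrogen. The 32 genes were chosen by their role in these pathways, and a probe was assigned to one of them where the RefSeq accession it carries belongs to that gene. All 32 genes had a probe on the array, all 32 passed the filter on dim probes, and they are 32 of the 21280 genes tested. They comprise 21 genes of branched-chain amino acid breakdown and 11 genes of aminotransferase, glutamine, proline, ornithine and lysine metabolism.

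Expression was measured in quadriceps muscle of male mice aged 8 weeks with single-colour arrays, 1 array per mouse and 4 mice in each of 4 groups. The groups were mFoxO-TKO mice fasted for 24 h, mFoxO-TKO mice fed freely, wild-type (WT) mice fasted for 24 h and WT mice fed freely. In mFoxO-TKO mice, Foxo1, Foxo3 and Foxo4 were deleted by a Cre recombinase under the human skeletal actin (HSA) promoter, so the deletion is directed at muscle fibres and other cells of the muscle keep the genes. The RNA came from the whole muscle, in which fewer cells of a type and less RNA per cell cannot be told apart.

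Leucine, isoleucine and valine first lose their amino group to a branched-chain aminotransferase, and the resulting keto acids are oxidised by the mitochondrial branched-chain keto acid dehydrogenase, a complex that a kinase switches off and a phosphatase switches on. Each keto acid then has its own chain of enzymes, and the valine and isoleucine chains meet at propionyl-CoA. Skeletal muscle is a main site of the aminotransferase step, and it releases the amino nitrogen as alanine and glutamine, above all in fasting. FoxO proteins switch genes on in the nucleus of muscle fibres when insulin is low and leave it when insulin is high.

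In what follows a level is the log2 signal of a probe minus the 75th percentile of its array, so 0 is a bright probe and levels are not compared between genes. A change is a difference of mean levels between 2 groups, with the standard error of a limma model fitted to all 16 arrays. A gene passed at a Benjamini-Hochberg adjusted p under 0.05 over all 21280 genes. The share of spots well above background was 45.0% to 75.2% of an array, and 0 spots were saturated. Replicates 1 and 2 of each group lay on slide 1 and replicates 3 and 4 on slide 2, so each change was also computed with slide as a block and within each slide. On both slides each group had a column of arrays to itself, so position and group cannot be told apart. Fasted mFoxO-TKO replicate 1 held a patch of 894 spots (1.51%) in which bright spots had lost signal, and it covered the brightest probes of Dld and Ppm1k. Over the 32 genes, the median deviation from the group mean was largest for fed mFoxO-TKO replicate 1, which lay 0.40 above its group, against at most 0.14 in size on the other 15 arrays.

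Foxo1 levels were 1.53 to 1.66 in fasted and 0.42 to 1.40 in fed mFoxO-TKO muscle. In WT muscle they were 4.70 to 5.56 in fasted and 2.43 to 2.86 in fed mice. The Foxo4 probe was well above background on all 4 arrays of each WT group and on 0 of the 8 mFoxO-TKO arrays. It passed the filter on dim probes only through the WT groups. A lower mFoxO-TKO level was thus in part fixed by the filter, and no p-value is given. Against WT muscle, Foxo4 in mFoxO-TKO muscle was at least 6.23-fold lower in fasted and at least 6.70-fold lower in fed mice. These bounds set the WT mean against the dimmest signals that were well above background on the mFoxO-TKO arrays. The dim Foxo3 probe was well above background on 4 arrays of fasted WT muscle and on 3 of each other group. It passed the filter only through fasted WT muscle. Its lower level in fasted mFoxO-TKO than in fasted WT muscle (-0.78 ± 0.27) was thus in part fixed by the filter, and no p-value is given for it. Between fed groups Foxo3 changed by 0.71 ± 0.27, which did not pass (adjusted p = 0.265). The sources do not place these probes relative to the deleted exons, and only a probe inside them would check the deletion. All 10 skeletal muscle markers were tested, and none passed in any of the 5 comparisons by limma (at most 2 at an unadjusted p under 0.05). The liver markers Alb, Apoa1, Ttr and Fgb did not pass the filter on dim probes. Fibroblast markers were lower in fasted muscle (3 of 7 in mFoxO-TKO and 5 of 7 in WT mice), with summed levels of 8.11 to 8.41 in fasted and 8.55 to 9.10 in fed mFoxO-TKO muscle, and of 8.22 to 8.87 in fasted and 8.97 to 9.01 in fed WT muscle. Over all genes, 5.21% were higher and 5.89% lower in mFoxO-TKO fasting, and 12.6% and 12.3% in WT fasting. Between fasted groups 5.43% were higher and 7.04% lower in mFoxO-TKO than in WT muscle. Of the macrophage markers, 3 of 5 were lower in mFoxO-TKO fasting and 1 of 5 in WT fasting. In fasted mice 1 of 5 was higher in mFoxO-TKO than in WT muscle. Their summed levels in fasted muscle, 3.23 to 4.43 in mFoxO-TKO and 3.31 to 3.65 in WT mice, overlapped with the fed levels given below. Between fed groups 0 of 5 passed by limma, with 3 at an unadjusted p under 0.05. All 5 were higher by sign in fed mFoxO-TKO muscle (median change 0.89). Their summed levels were 4.01 to 5.06 in fed mFoxO-TKO and 3.49 to 4.19 in fed WT muscle. Of the other lists, 1 of 6 fat cell markers was higher and 1 lower with fasting in each genotype, 1 of 6 endothelial markers was lower and 1 of 4 Schwann cell markers higher in WT fasting, and of 2 satellite cell markers 1 was lower in WT fasting and 1 higher in fasted mFoxO-TKO than in fasted WT muscle. The slow fibre (6), red cell (4) and remaining liver (1) markers passed in no comparison by limma (at most 2 at an unadjusted p under 0.05 in any list). The part of these cells in the results below was not tested.

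Fasting raised 4 of the 32 genes and lowered 1 in mFoxO-TKO muscle, where 5.21% of all genes tested were higher and 5.89% lower. In WT muscle fasting raised 8 and lowered 1, where 12.6% of all genes were higher and 12.3% lower. The lower gene was Bcat1 in both genotypes, and its probe passed the filter on dim probes only through the fed groups, where it was brighter. Between genotypes, 1 gene was higher and 6 were lower in fasted mFoxO-TKO than in fasted WT muscle (5.43% and 7.04% of all genes). In fed muscle 0 were higher and 1 was lower in mFoxO-TKO than in WT mice (0.648% and 0.832% of all genes). In the interaction, the fasting change in mFoxO-TKO minus that in WT mice, 1 gene was higher and 0 were lower (0.719% and 1.47% of all genes).

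**Figure D1:**
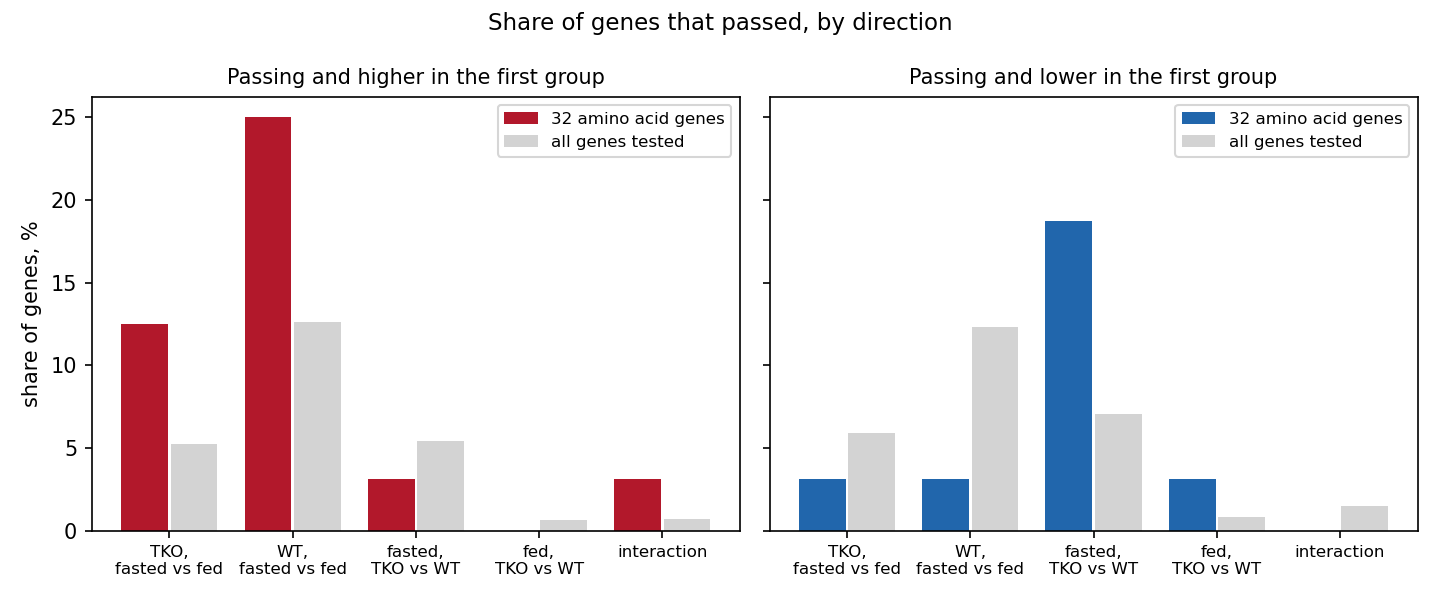
Share of genes that passed (adjusted p under 0.05), in percent on the vertical axis, by comparison; coloured bars are the 32 amino acid genes, grey bars all 21280 genes tested, and TKO stands for mFoxO-TKO. The left panel holds genes higher in the first-named group and the right panel genes lower in it. In mFoxO-TKO fasting 12.5% of the 32 genes were higher, beside 5.21% of all genes, and in WT fasting 25.0%, beside 12.6%, while 18.8% were lower in fasted mFoxO-TKO than in fasted WT muscle, beside 7.04% of all genes.

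The median change of the 32 genes was 0.20 in mFoxO-TKO and 0.17 in WT fasting, beside medians of 0.00 and -0.02 over all genes. The WT fasting median of the 32 was 0.06 with quantile scaling or with the percentile over probes well above background on all arrays, and 0.04 over the 26 of them tested in the authors' value table, beside -0.07, -0.13 and -0.09 over all genes. Without a filter on dim probes the median of all genes in WT fasting was 0.20, above that of the 32. Between genotypes the median of the 32 genes was -0.24 in fasted muscle without the patch spots (-0.41 with them) and -0.19 in fed muscle. Over all genes it was 0.02 in fasted muscle without the patch spots (0.01 with them) and -0.01 in fed muscle. Of the 32 genes, 29 had a negative change in fed muscle and 1 passed there. The share of negative changes over all genes was not counted. Within slides the medians over the tested genes of the 32 were 0.12 and 0.25 for mFoxO-TKO fasting, 0.26 and 0.19 for WT fasting, -0.39 and -0.14 for fasted mFoxO-TKO against fasted WT, and -0.18 and -0.20 for the fed groups. With slide as a block the counts were 5 higher and 1 lower in mFoxO-TKO fasting (7.72% and 8.20% of all genes) and 13 higher and 1 lower in WT fasting (15.5% and 15.5%). They were 1 higher and 11 lower in fasted mFoxO-TKO against fasted WT (7.62% and 9.50%), 0 and 1 in the fed groups (1.17% and 1.64%), and 1 and 0 in the interaction (1.39% and 2.86%). Leaving out fed mFoxO-TKO replicate 1 gave 9 in place of 5 genes in mFoxO-TKO fasting, and leaving out fed WT replicate 4 gave 5 in place of 9 in WT fasting. The array percentile was also taken over probe means after uneven spots were left out, while the main setting took it over all spots. Then 4 in place of 7 passed between the fasted groups, and Aldh6a1 (adjusted p = 0.0969), Acadsb (0.0965) and Aldh7a1 (0.0647) were lost. In all, 12 of the 32 genes passed in at least 1 comparison and 20 passed in none.

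**Figure D2:**
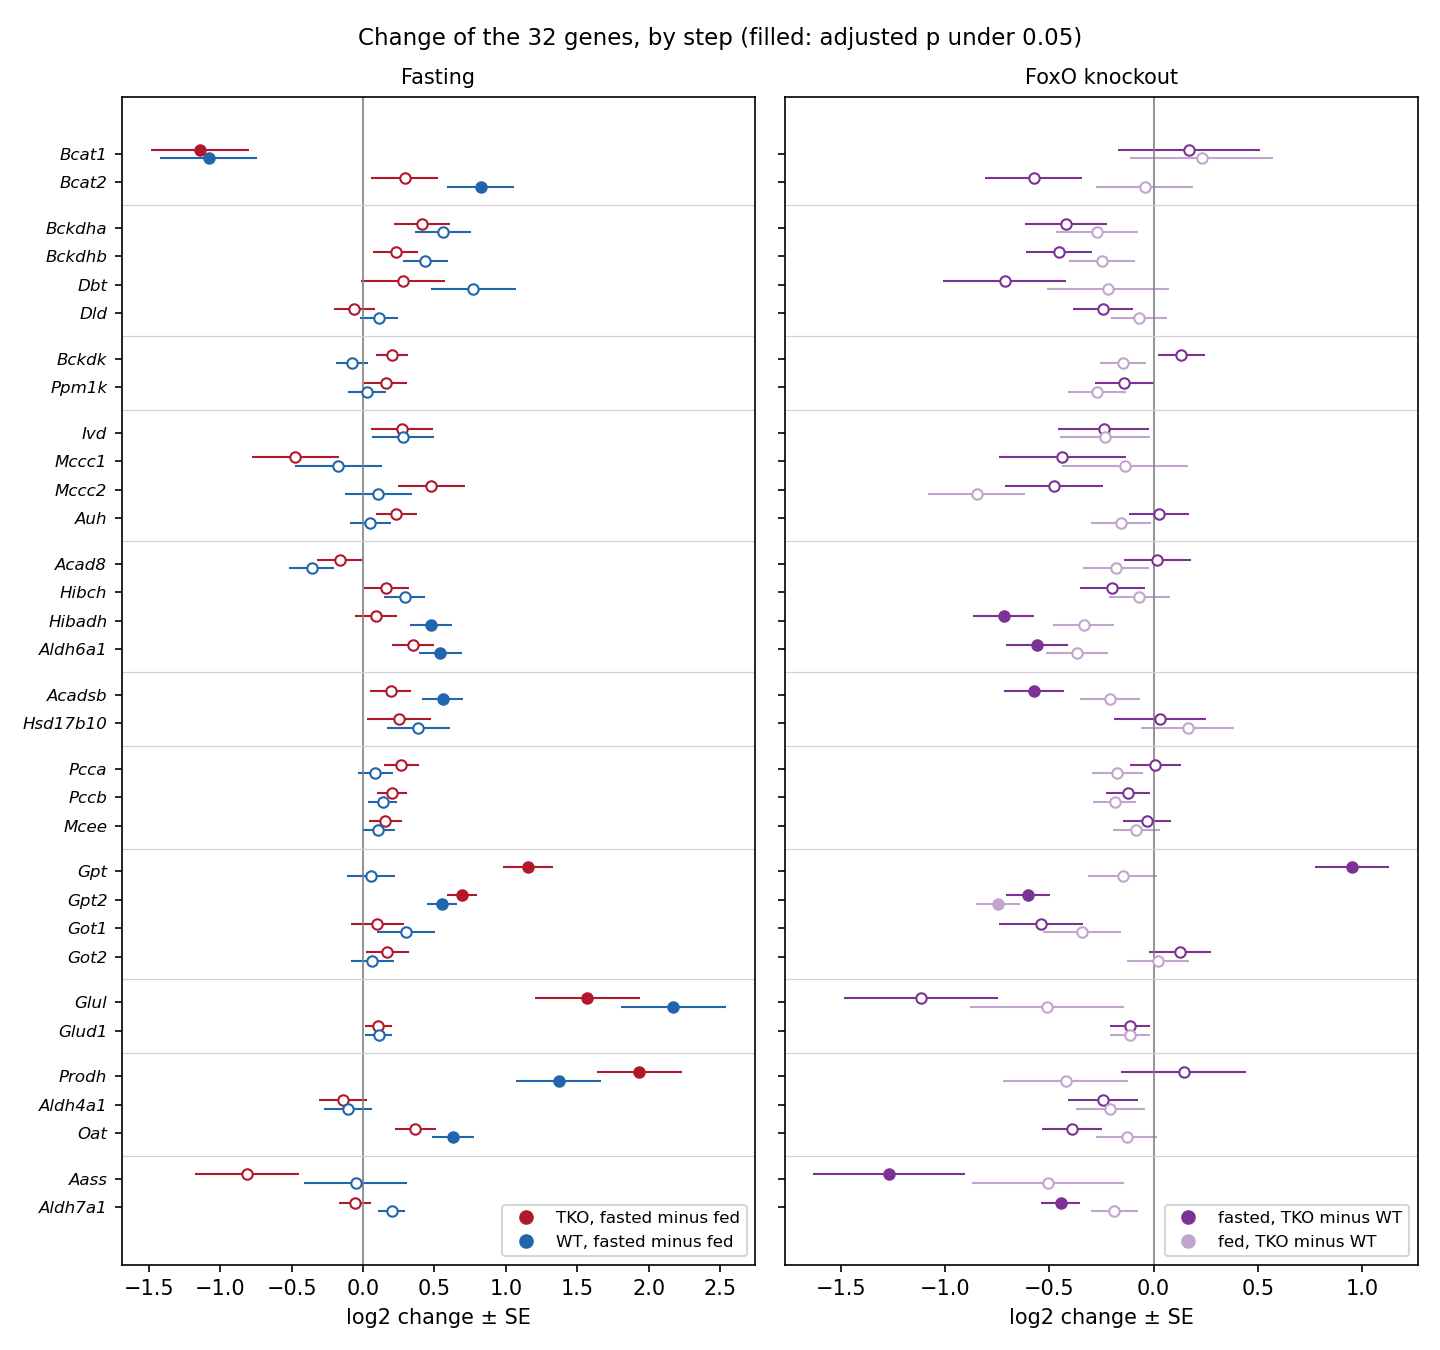
Change of each of the 32 genes (log2, horizontal axis) ± SE, grouped by step from the top: transamination, dehydrogenase complex, its kinase and phosphatase, leucine, valine, isoleucine and propionyl-CoA steps, aminotransferases, glutamine and glutamate, proline and ornithine, and lysine. The left panel shows fasted minus fed in mFoxO-TKO (TKO) and WT mice, the right panel mFoxO-TKO minus WT in fasted and fed mice; filled points passed, and the patch spots of Dld and Ppm1k are left out. Glul, Prodh and Gpt2 lie right of 0 and are filled in both genotypes on the left, while Hibadh, Aldh6a1, Acadsb, Gpt2, Aass and Aldh7a1 lie left of 0 and are filled in fasted mice on the right.

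The genes with the largest rises handle glutamine and proline. Their promoters and those of Gpt2 and Oat, which also rose in fasted WT muscle, are shown as those of the 4 genes outside the branched-chain steps that rose in fasted WT muscle. Each window holds the letters CCACCC or, on the other strand, GGGTGG, a core bound by Klf factors. The windows are RefSeq promoters of build GRCm38.p6, from 250 bases before to 50 bases after the gene start, written in the direction of the gene with the match in capitals.
Glul, chr1:153899679-153899978, plus strand: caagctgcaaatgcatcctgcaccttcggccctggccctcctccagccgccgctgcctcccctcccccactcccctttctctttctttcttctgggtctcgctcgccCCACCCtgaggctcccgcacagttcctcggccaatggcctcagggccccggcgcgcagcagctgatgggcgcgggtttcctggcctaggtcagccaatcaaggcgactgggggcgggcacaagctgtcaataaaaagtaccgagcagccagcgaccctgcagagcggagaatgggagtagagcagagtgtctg
Prodh, chr16:18089141-18089440, minus strand: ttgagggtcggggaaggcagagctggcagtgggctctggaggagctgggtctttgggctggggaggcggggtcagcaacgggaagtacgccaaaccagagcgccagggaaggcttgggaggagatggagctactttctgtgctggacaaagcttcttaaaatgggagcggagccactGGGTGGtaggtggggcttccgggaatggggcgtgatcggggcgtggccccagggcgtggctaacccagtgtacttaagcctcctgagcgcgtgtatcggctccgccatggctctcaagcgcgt
Gpt2, chr8:85492326-85492625, plus strand: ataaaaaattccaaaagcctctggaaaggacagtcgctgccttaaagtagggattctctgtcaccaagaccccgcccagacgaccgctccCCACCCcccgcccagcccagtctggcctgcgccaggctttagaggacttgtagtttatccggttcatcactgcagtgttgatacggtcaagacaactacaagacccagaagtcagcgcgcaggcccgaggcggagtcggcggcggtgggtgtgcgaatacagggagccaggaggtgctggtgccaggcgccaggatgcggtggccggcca
Oat, chr7:132576349-132576648, minus strand: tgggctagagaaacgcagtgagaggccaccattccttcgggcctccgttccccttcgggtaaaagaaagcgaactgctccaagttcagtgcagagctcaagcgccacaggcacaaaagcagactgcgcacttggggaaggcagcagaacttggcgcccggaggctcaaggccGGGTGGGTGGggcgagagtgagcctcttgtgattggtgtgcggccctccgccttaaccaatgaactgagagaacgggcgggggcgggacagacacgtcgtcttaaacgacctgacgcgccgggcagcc
The match begins 143 bases before the start in Glul, 160 in Gpt2 and 73 in Prodh, and Oat holds 2 overlapping matches at 78 and 74 bases. Of the 32 genes, 29 had 34 windows in the table, of which 14 (41.2%) held CCACCC, beside 31.5% of all 32851 windows. The letters were also found for Bcat2 and Aldh6a1, which rose in WT fasting, and for Acad8, Bckdhb, Got1, Hsd17b10, Ivd, Mccc1 and Pcca, which did not pass there, and not for Hibadh and Acadsb, which rose in WT fasting. The full glucocorticoid response element, a palindrome of 2 half-sites, was found in 0 of the 34 windows and in 0.00913% of all, and the composite TGATGCAA of CEBP and ATF4 in 1 (Got1) and in 0.895%. The motifs were searched on both strands. A match is a description of the letters in the window.

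Glul, which encodes glutamine synthetase, had levels of 6.79, 5.77, 6.28 and 5.77 in fasted mFoxO-TKO muscle, against 5.57, 4.58, 4.29 and 3.90 in fed mFoxO-TKO muscle. In WT mice Glul had 7.74, 7.32, 7.06 and 6.95 in fasted, against 5.92, 5.23, 4.74 and 4.48 in fed muscle. Every fasted array lay above every fed array of its genotype, and every fasted WT array lay above every fasted mFoxO-TKO array. Glul rose by 1.57 ± 0.37 in mFoxO-TKO (2.97-fold, adjusted p = 0.0136) and by 2.17 ± 0.37 in WT muscle (4.51-fold, adjusted p = 0.000559). Within slides 1 and 2 the rises were 1.21 and 1.93 in mFoxO-TKO and 1.95 and 2.39 in WT mice. The difference between fasted mFoxO-TKO and fasted WT muscle, -1.12 ± 0.37, did not pass (adjusted p = 0.064) and passed with slide as a block (adjusted p = 0.0137). The interaction, -0.60 ± 0.52, did not pass (adjusted p = 0.727). Glud1, the mitochondrial glutamate dehydrogenase, changed by 0.11 ± 0.10 in both genotypes and passed in no comparison.

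Prodh encodes proline dehydrogenase, the first enzyme of proline breakdown in mitochondria. Its levels were 3.13, 3.05, 3.31 and 3.19 in fasted and 2.27, 0.83, 0.77 and 1.08 in fed mFoxO-TKO muscle. In WT muscle they were 3.25, 3.30, 2.74 and 2.81 in fasted and 2.37, 1.54, 1.39 and 1.32 in fed mice. The fasted arrays of both genotypes overlapped and all lay above the fed arrays, with replicate 1 highest in each fed group. Prodh rose by 1.94 ± 0.30 in mFoxO-TKO (3.83-fold, adjusted p = 0.00114) and by 1.37 ± 0.30 in WT muscle (2.58-fold, adjusted p = 0.00367). Within slides 1 and 2 the rises were 1.54 and 2.33 in mFoxO-TKO and 1.32 and 1.42 in WT mice. Between genotypes Prodh differed by 0.14 ± 0.30 in fasted mice (adjusted p = 0.826) and by -0.42 ± 0.30 in fed mice (adjusted p = 0.722).

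Oat, the mitochondrial ornithine aminotransferase, had levels of 4.27, 4.57, 4.70 and 4.59 in fasted and 4.61, 3.95, 3.98 and 4.11 in fed mFoxO-TKO muscle. In WT muscle Oat had 5.05, 4.87, 4.94 and 4.84 in fasted and 4.49, 4.27, 4.25 and 4.16 in fed mice. The WT groups did not overlap, while fed mFoxO-TKO replicate 1 lay above 3 of the 4 fasted mFoxO-TKO arrays. In mFoxO-TKO muscle the change of 0.37 ± 0.15 did not pass (adjusted p = 0.129), and without fed mFoxO-TKO replicate 1 it passed (0.52, adjusted p = 0.0157). Oat rose in WT muscle by 0.63 ± 0.15 (1.55-fold, adjusted p = 0.00533; 0.57 and 0.69 within slides). Aldh4a1, the dehydrogenase that completes proline breakdown to glutamate, changed by -0.14 ± 0.17 in mFoxO-TKO and by -0.11 ± 0.17 in WT muscle and passed in no comparison.

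**Figure D3:**
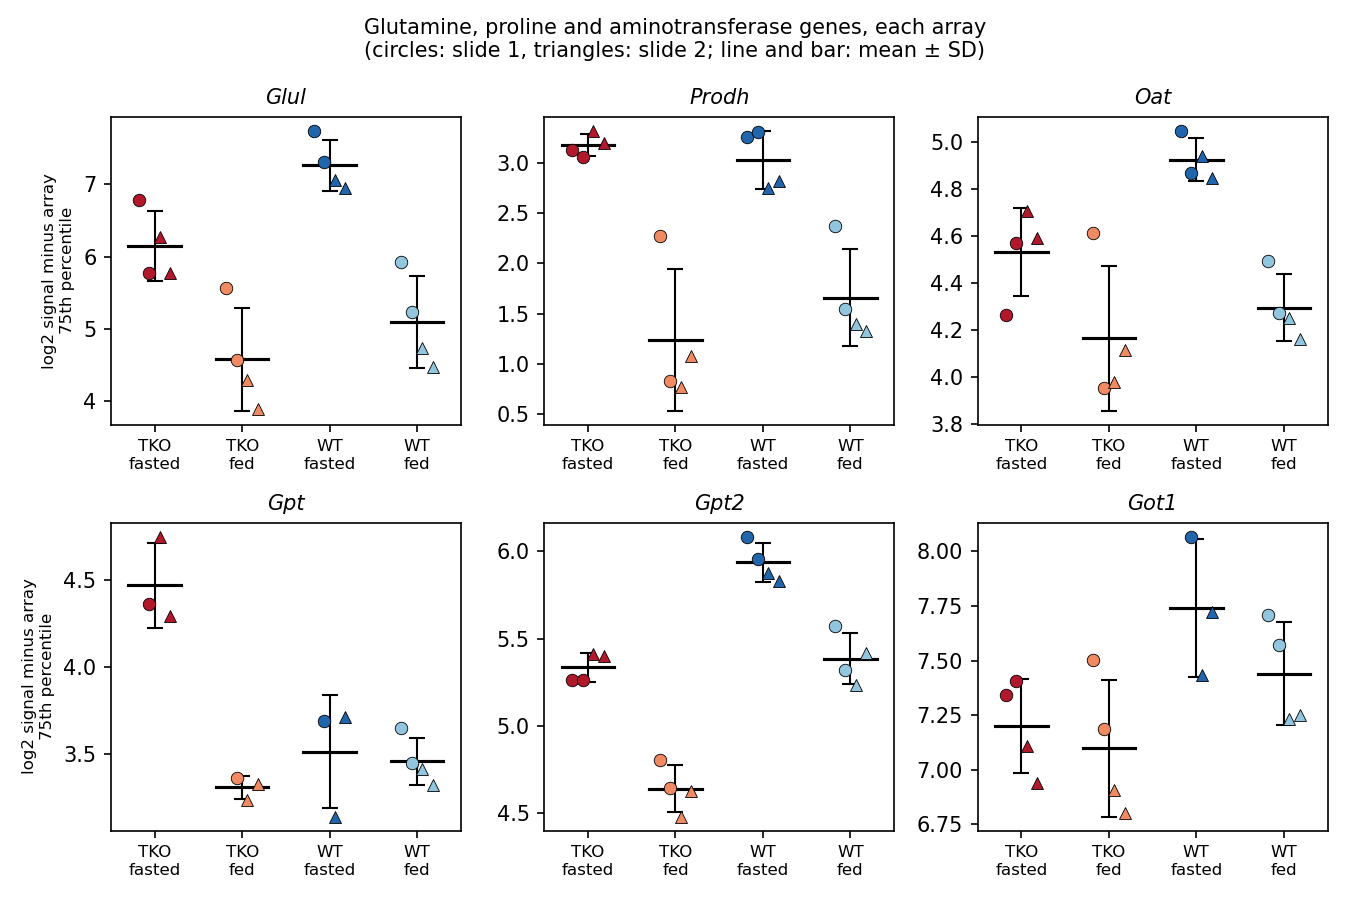
Levels (log2 signal minus the array's 75th percentile, vertical axes) of Glul, Prodh, Oat, Gpt, Gpt2 and Got1 on each array, by group; circles are slide 1, triangles slide 2, lines and bars the mean ± SD, and TKO stands for mFoxO-TKO. Gpt in fasted mFoxO-TKO muscle lies at 4.29 to 4.75, above all other arrays, and Gpt2 in fed mFoxO-TKO muscle lies at 4.48 to 4.81, below all other arrays.

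Of the alanine aminotransferases, Gpt was higher and Gpt2 was lower in fasted mFoxO-TKO than in fasted WT muscle. Gpt encodes the cytosolic enzyme, which makes alanine from pyruvate and the amino group of glutamate, and Gpt2 the mitochondrial one. Gpt levels were 4.36, 4.75 and 4.29 in fasted and 3.37, 3.24 and 3.33 in fed mFoxO-TKO muscle. In WT muscle Gpt had 3.69, 3.14 and 3.71 in fasted and 3.65, 3.45, 3.42 and 3.33 in fed mice. The 3 fasted mFoxO-TKO arrays lay above all others, and the WT groups overlapped. Replicate 1 of fasted mFoxO-TKO, fed mFoxO-TKO and fasted WT muscle had its Gpt spot marked as uneven and left out, so n = 3 in these groups.

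Gpt rose with fasting by 1.16 ± 0.18 in mFoxO-TKO muscle (2.23-fold, adjusted p = 0.00186) and changed by 0.06 ± 0.17 in WT muscle (adjusted p = 0.863). In fasted mice it was higher in mFoxO-TKO than in WT muscle by 0.95 ± 0.18 (1.93-fold, adjusted p = 0.00378), and in fed mice it differed by -0.15 ± 0.17 (adjusted p = 0.892). The interaction was 1.10 ± 0.24 (adjusted p = 0.0386), and it was 0.86 within slide 1, 1.18 within slide 2 and 1.08 with slide as a block (adjusted p = 0.0302). With the uneven spots kept, the mFoxO-TKO fasting change was 0.88 (adjusted p = 0.142), the difference in fasted mice 0.91 (adjusted p = 0.125) and the interaction 1.16 (adjusted p = 0.356). The interaction did not pass with normexp, another background correction (1.03, adjusted p = 0.0594), without a filter on dim probes (adjusted p = 0.135), with the percentile taken after uneven spots were left out (1.09, adjusted p = 0.0735) or with the replicate number as a block (1.04, adjusted p = 0.0747). The interaction also failed when a single array was left out, namely fed WT replicate 1, 2, 3 or 4, fasted WT replicate 3, or replicate 2, 3 or 4 of either mFoxO-TKO group (0.91 to 1.19, adjusted p from 0.0568 to 0.0927).

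Gpt2 levels were 5.26, 5.26, 5.41 and 5.40 in fasted and 4.81, 4.64, 4.48 and 4.63 in fed mFoxO-TKO muscle. In WT muscle Gpt2 had 6.08, 5.96, 5.88 and 5.83 in fasted and 5.57, 5.32, 5.23 and 5.42 in fed mice. Fasted and fed arrays did not overlap in either genotype, nor did the genotypes in either feeding state, and fasted mFoxO-TKO overlapped with fed WT muscle. Gpt2 rose with fasting by 0.70 ± 0.11 in mFoxO-TKO (1.62-fold, adjusted p = 0.000964) and by 0.55 ± 0.11 in WT muscle (1.47-fold, adjusted p = 0.00133). It was lower in mFoxO-TKO than in WT muscle in fasted mice by -0.60 ± 0.11 (1.52-fold, adjusted p = 0.00131) and in fed mice by -0.74 ± 0.11 (1.68-fold, adjusted p = 0.00183). Gpt2 was the 1 gene of the 32 that passed between the fed groups, and the interaction of 0.14 ± 0.15 did not pass (adjusted p = 0.786). Within slides 1 and 2 the differences between genotypes were -0.76 and -0.45 in fasted mice and -0.72 and -0.77 in fed mice.

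The aspartate aminotransferases Got1 (cytosolic) and Got2 (mitochondrial) passed in no comparison of the fit without a block. Got1 had 7.34, 7.41, 7.11 and 6.94 in fasted mFoxO-TKO muscle, against 8.07, 7.44 and 7.72 in fasted WT muscle, where the spot of replicate 1 was left out as uneven. These arrays did not overlap, with a difference of -0.54 ± 0.20 (adjusted p = 0.105) that was -0.61 with slide as a block and then passed (adjusted p = 0.00136). In WT fasting the Got1 change with slide as a block was 0.37, which passed (adjusted p = 0.0162). Got2 changed by 0.17 ± 0.15 in mFoxO-TKO and 0.06 ± 0.15 in WT fasting.

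Among the 21 branched-chain genes, fasting raised 0 and lowered 1 in mFoxO-TKO muscle by limma (3 at an unadjusted p under 0.05), where 5.21% of all genes were higher and 5.89% lower. In WT muscle it raised 4 and lowered 1, where 12.6% of all genes were higher and 12.3% lower. In fasted mice 3 were lower in mFoxO-TKO than in WT muscle (7.04% of all genes), and in fed mice 0 passed (3 at an unadjusted p under 0.05), where 0.648% of all genes were higher and 0.832% lower. The interaction called 0 of the 21 (0 at an unadjusted p under 0.05), so a rise that passed in WT mice alone was not shown to differ from that in mFoxO-TKO mice.

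**Figure D4:**
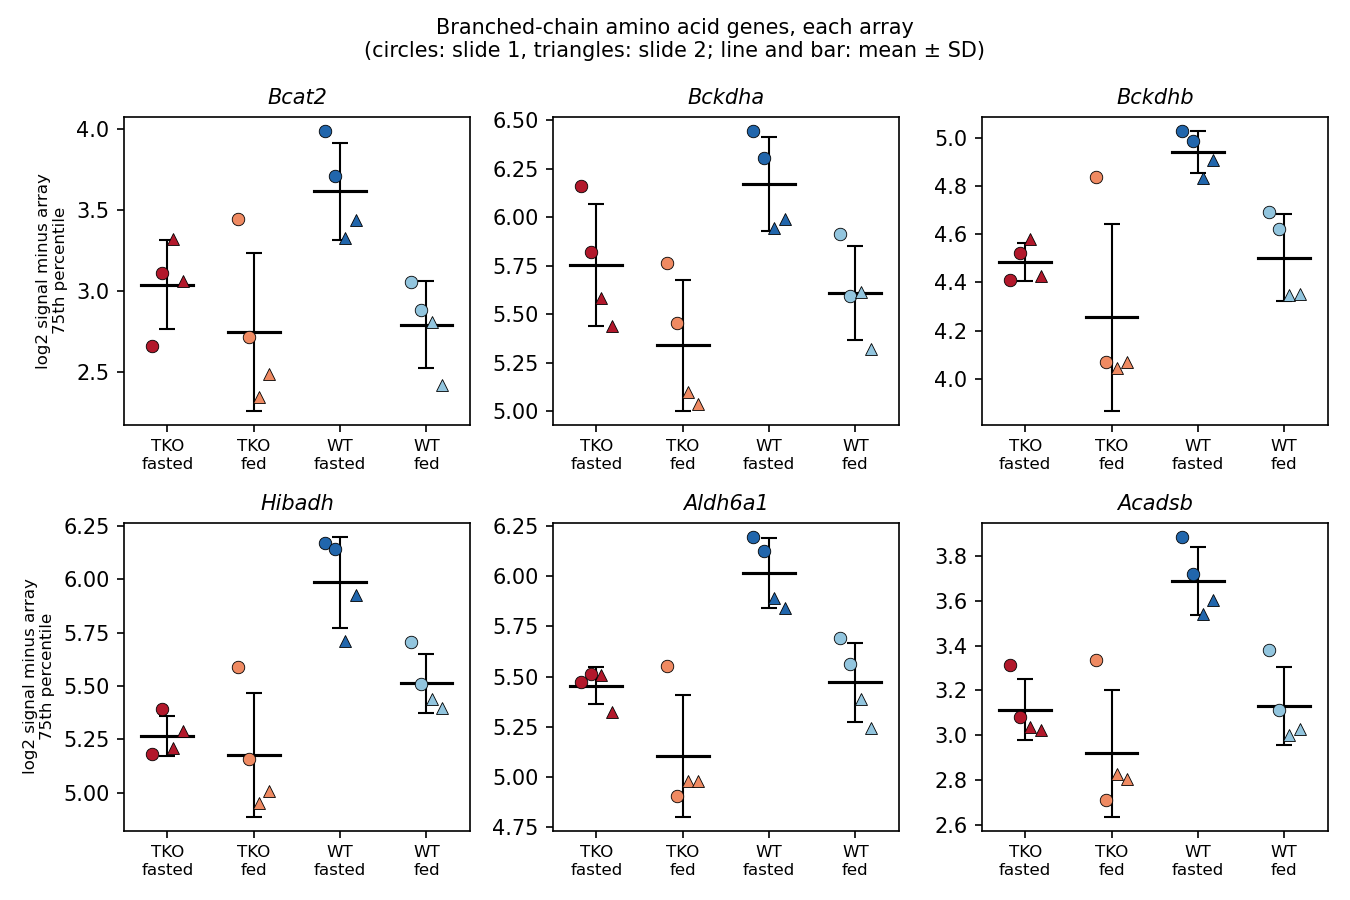
Levels (log2 signal minus the array's 75th percentile, vertical axes) of Bcat2, Bckdha, Bckdhb, Hibadh, Aldh6a1 and Acadsb on each array, by group; circles are slide 1, triangles slide 2, lines and bars the mean ± SD, and TKO stands for mFoxO-TKO. Fasted WT muscle has the highest mean in each panel, and fed mFoxO-TKO replicate 1 is the highest array of its group in all 6.

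Bcat2 encodes the mitochondrial branched-chain aminotransferase, the main form in muscle. Its levels were 2.66, 3.11, 3.32 and 3.06 in fasted and 3.44, 2.72, 2.34 and 2.49 in fed mFoxO-TKO muscle. In WT muscle they were 3.99, 3.71, 3.32 and 3.43 in fasted and 3.06, 2.88, 2.80 and 2.42 in fed mice. The WT groups did not overlap and the mFoxO-TKO groups did. The mFoxO-TKO fasting change of 0.29 ± 0.23 did not pass (adjusted p = 0.493). Bcat2 rose in WT muscle by 0.82 ± 0.23 (1.77-fold, adjusted p = 0.0172; 0.88 and 0.77 within slides). Without fasted WT replicate 1 or fed WT replicate 4 the change was 0.70 and did not pass (adjusted p = 0.0597 and 0.0606). The difference of -0.58 ± 0.23 between fasted mFoxO-TKO and fasted WT muscle did not pass either (adjusted p = 0.134).

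Bcat1, the cytosolic form, was read by a dim probe that was well above background on 2 fasted and 4 fed mFoxO-TKO arrays and on 3 fasted and 4 fed WT arrays. Its levels were -3.71, -3.08, -3.87 and -3.90 in fasted and -2.93, -2.72, -2.26 and -2.08 in fed mFoxO-TKO muscle. In WT muscle Bcat1 had -3.32, -3.52, -4.54 and -3.86 in fasted and -3.69, -2.13, -2.83 and -2.26 in fed mice. The mFoxO-TKO groups did not overlap, and fed WT replicate 1 lay among the fasted WT arrays. The fasted minus fed difference was -1.14 ± 0.34 in mFoxO-TKO (adjusted p = 0.0452) and -1.08 ± 0.34 in WT muscle (adjusted p = 0.0314). The probe was kept through the fed groups alone, so a lower fasted level was in part fixed by the filter, and without a filter neither difference passed (adjusted p = 0.105 and 0.0664). Within slides 1 and 2 the changes were -0.57 and -1.72 in mFoxO-TKO and -0.51 and -1.65 in WT mice. In mFoxO-TKO mice the call was lost without fasted mFoxO-TKO replicate 1, 3 or 4, fed mFoxO-TKO replicate 2, 3 or 4, fasted WT replicate 2 or 4, or fed WT replicate 3 (-1.22 to -1.01, adjusted p from 0.0531 to 0.116). In WT mice it was lost without fasted WT replicate 3 or 4 or fed WT replicate 2, 3 or 4 (-1.12 to -0.84, adjusted p from 0.0545 to 0.1003). With normexp the changes were -0.38 and -0.60, and neither passed (adjusted p = 0.376 and 0.0927). A second, dimmer Bcat1 probe was well above background on 1 fasted and 4 fed mFoxO-TKO arrays and on 0 fasted and 2 fed WT arrays, and it did not pass (adjusted p = 0.0951 and 0.0617).

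Of the dehydrogenase complex, Bckdha and Bckdhb encode the subunits of the decarboxylase, Dbt the acyltransferase core and Dld a dehydrogenase shared with other complexes. In WT fasting 0 of 4 passed by limma (3 at an unadjusted p under 0.05), and Bckdha, Bckdhb and Dbt passed with slide as a block. Bckdha levels were 6.16, 5.82, 5.58 and 5.44 in fasted and 5.76, 5.46, 5.10 and 5.04 in fed mFoxO-TKO muscle, and 6.45, 6.30, 5.94 and 5.99 in fasted and 5.92, 5.59, 5.61 and 5.32 in fed WT muscle. Slide 1 lay above slide 2 in both mFoxO-TKO groups and in fasted WT muscle, and the WT groups did not overlap. The Bckdha change was 0.41 ± 0.20 in mFoxO-TKO (adjusted p = 0.217, and 0.0267 with slide as a block) and 0.56 ± 0.20 in WT fasting (adjusted p = 0.0516, and 0.00218 with slide as a block).

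Bckdhb changed by 0.44 ± 0.16 (adjusted p = 0.0583) and Dbt by 0.77 ± 0.29 (adjusted p = 0.0701) in WT fasting, and with slide as a block the adjusted p was 0.0293 and 0.0114. Between fasted mFoxO-TKO and fasted WT muscle Bckdha differed by -0.42 ± 0.20, Bckdhb by -0.46 ± 0.16 and Dbt by -0.72 ± 0.29, which did not pass (adjusted p = 0.209, 0.0794 and 0.142) and passed with slide as a block (adjusted p = 0.0221, 0.0387 and 0.0292). Within slides 1 and 2 these differences were -0.38 and -0.45 for Bckdha, -0.54 and -0.37 for Bckdhb, and -1.07 and -0.36 for Dbt. Without the patch spot, Dld changed by -0.06 ± 0.14 in mFoxO-TKO and by 0.11 ± 0.13 in WT fasting and passed in no comparison.

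Bckdk, the kinase that inactivates the complex, changed by 0.20 ± 0.11 in mFoxO-TKO (adjusted p = 0.291) and by -0.08 ± 0.11 in WT fasting (adjusted p = 0.686). The brightest probe of Ppm1k, the phosphatase that reactivates it, changed by 0.16 ± 0.15 and 0.03 ± 0.13 without the patch spot. A dimmer Ppm1k probe disagreed with it. That probe fell by -0.58 ± 0.15 in mFoxO-TKO (adjusted p = 0.0253) and by -0.60 ± 0.15 in WT fasting (adjusted p = 0.00938), and the fasted and fed arrays did not overlap in either genotype. Both probes carry the same RefSeq accession.

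Of the leucine-specific genes, Ivd, Mccc1 and Mccc2 encode enzymes that turn isovaleryl-CoA into methylglutaconyl-CoA, and Auh encodes the hydratase that follows. None of the 4 passed in any comparison by limma, with 1 at an unadjusted p under 0.05. That gene was Mccc2, a subunit of methylcrotonyl-CoA carboxylase, with 1.03, 1.49, 0.95 and 0.68 in fed mFoxO-TKO muscle, against 2.003, 2.07, 1.76 and 1.71 in fed WT muscle. The fed groups did not overlap, and the difference was -0.85 ± 0.23 (adjusted p = 0.104). The brightest Mccc1 probe changed by -0.17 ± 0.30 in WT fasting, while its second probe rose by 0.41 ± 0.13 (adjusted p = 0.0255).

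The valine steps held 2 genes that rose in WT fasting and were lower in fasted mFoxO-TKO than in fasted WT muscle. Hibadh encodes 3-hydroxyisobutyrate dehydrogenase, and its promoter is shown because it is one of 2 of the 34 windows, with that of Auh, that hold the forkhead letters GTAAACA (3.65% of all windows). Auh passed in no comparison. The capitals mark the match in Hibadh, which begins 234 bases before the start.
Hibadh, chr6:52640251-52640550, minus strand, GRCm38.p6: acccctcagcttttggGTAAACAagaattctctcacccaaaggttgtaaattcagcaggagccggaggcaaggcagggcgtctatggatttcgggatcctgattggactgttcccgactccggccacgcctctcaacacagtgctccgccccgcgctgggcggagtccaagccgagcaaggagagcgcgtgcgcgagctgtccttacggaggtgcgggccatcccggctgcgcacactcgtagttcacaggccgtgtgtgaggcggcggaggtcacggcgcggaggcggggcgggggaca
Hibadh levels were 5.18, 5.39, 5.21 and 5.29 in fasted and 5.59, 5.16, 4.95 and 5.01 in fed mFoxO-TKO muscle. In WT muscle they were 6.17, 6.14, 5.71 and 5.93 in fasted and 5.71, 5.51, 5.44 and 5.40 in fed mice. Every fasted WT array lay above every other array, the nearest being fed WT replicate 1. In fasted mice Hibadh was lower in mFoxO-TKO than in WT muscle by -0.72 ± 0.15 (1.65-fold, adjusted p = 0.00398; -0.87 and -0.57 within slides). It changed by 0.09 ± 0.15 in mFoxO-TKO fasting (adjusted p = 0.769) and rose in WT fasting by 0.47 ± 0.15 (1.39-fold, adjusted p = 0.0269; 0.55 and 0.40 within slides). The WT rise did not pass without fasted WT replicate 1 or 2 or fed WT replicate 2, 3 or 4 (0.41 to 0.47, adjusted p from 0.0553 to 0.0820). This rise was also lost without a filter on dim probes (adjusted p = 0.0675) and within slides 1 and 2 (adjusted p = 0.157 and 0.0593). With the percentile taken after uneven spots were left out it did not pass either (adjusted p = 0.0518).

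Aldh6a1, methylmalonate semialdehyde dehydrogenase, had 5.48, 5.51, 5.51 and 5.32 in fasted and 5.55, 4.90, 4.98 and 4.98 in fed mFoxO-TKO muscle. In WT muscle Aldh6a1 had 6.20, 6.13, 5.89 and 5.84 in fasted and 5.69, 5.56, 5.39 and 5.24 in fed mice. The fasted WT arrays lay above all others. In fasted mice Aldh6a1 was lower in mFoxO-TKO than in WT muscle by -0.56 ± 0.15 (1.47-fold, adjusted p = 0.0233; -0.67 and -0.45 within slides). The mFoxO-TKO fasting change of 0.35 ± 0.15 did not pass (adjusted p = 0.160) and passed without fed mFoxO-TKO replicate 1 (0.50, adjusted p = 0.023). It rose in WT fasting by 0.54 ± 0.15 (1.46-fold, adjusted p = 0.0152; 0.54 and 0.55 within slides). The second Aldh6a1 probe passed between fasted groups and in WT fasting, at -0.66 ± 0.17 and 0.67 ± 0.17 (adjusted p = 0.0177 and 0.00931). The difference between fasted groups was lost without fasted mFoxO-TKO replicate 4 or fasted WT replicate 1 or 2 (-0.52 to -0.50, adjusted p from 0.0554 to 0.0728), and the WT rise without fasted WT replicate 1 or fed WT replicate 4 (0.48 and 0.47, adjusted p = 0.0503 and 0.0550). The former was also lost without a filter on dim probes (adjusted p = 0.0654) and within slides 1 and 2 (adjusted p = 0.208 and 0.0779). Hibch, the hydrolase before Hibadh, and Acad8, isobutyryl-CoA dehydrogenase, passed in no comparison of the fit without a block, with WT fasting changes of 0.29 ± 0.15 and -0.36 ± 0.16 (adjusted p = 0.174 and 0.119). With slide as a block the Hibch change in WT fasting passed (adjusted p = 0.0412).

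Acadsb, the isoleucine-chain acyl-CoA dehydrogenase, had 3.31, 3.08, 3.04 and 3.02 in fasted and 3.34, 2.71, 2.83 and 2.81 in fed mFoxO-TKO muscle. In WT muscle Acadsb had 3.89, 3.72, 3.54 and 3.60 in fasted and 3.38, 3.11, 3.00 and 3.03 in fed mice. The fasted WT arrays again lay above all others. Acadsb was lower in fasted mFoxO-TKO than in fasted WT muscle by -0.57 ± 0.14 (1.49-fold, adjusted p = 0.0158; -0.61 and -0.54 within slides), and this was lost without fasted WT replicate 1 (-0.51, adjusted p = 0.0540). It changed by 0.20 ± 0.14 in mFoxO-TKO fasting (adjusted p = 0.450) and rose in WT fasting by 0.56 ± 0.14 (1.47-fold, adjusted p = 0.0101; 0.56 in each slide). Hsd17b10, which acts after it, had replicate 1 of all 4 groups left out as uneven and passed in no comparison.

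The propionyl-CoA genes Pcca and Pccb, subunits of propionyl-CoA carboxylase, and Mcee, the epimerase that follows, passed in no comparison (0 of 3 by limma, with at most 1 at an unadjusted p under 0.05). Their changes were small, at 0.16 to 0.27 in mFoxO-TKO fasting, 0.09 to 0.14 in WT fasting, -0.12 to 0.01 between fasted groups and -0.19 to -0.08 between fed groups.

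Both lysine genes were lower in fasted mFoxO-TKO than in fasted WT muscle. Aass encodes the enzyme that starts lysine breakdown in mitochondria, and its promoter is shown because it holds the forkhead variant TGTTTGC. The variant was found in 2 of 34 windows, with that of Bckdk, which passed in no comparison, and in 5.07% of all windows. In Aass it stands as GCAAACA, in capitals, and begins 18 bases before the start.
Aass, chr6:23132937-23133236, minus strand, GRCm38.p6: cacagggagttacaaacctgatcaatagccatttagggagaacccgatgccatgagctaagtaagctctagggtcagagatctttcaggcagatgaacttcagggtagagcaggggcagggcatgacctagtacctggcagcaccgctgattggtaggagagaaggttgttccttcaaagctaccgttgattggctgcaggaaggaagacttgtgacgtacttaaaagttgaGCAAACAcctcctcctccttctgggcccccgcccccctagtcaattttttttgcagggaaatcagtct
Aass levels were -3.18, -3.98, -3.14 and -2.94 in fasted and -2.31, -2.98, -2.54 and -2.16 in fed mFoxO-TKO muscle. In WT muscle Aass had -3.07, -2.47, -1.58 and -1.04 in fasted and -1.91, -2.28, -2.12 and -1.65 in fed mice. The fasted groups overlapped through fasted WT replicate 1, and the WT groups overlapped too. Aass was lower in fasted mFoxO-TKO than in fasted WT muscle by -1.27 ± 0.36 (2.41-fold, adjusted p = 0.0331; -0.81 and -1.73 within slides). This was lost without fasted mFoxO-TKO replicate 1, 2 or 3 or fasted WT replicate 3 or 4 (-1.33 to -0.94, adjusted p from 0.0506 to 0.102). It was also lost with normexp (-0.71, adjusted p = 0.122), without a filter on dim probes (adjusted p = 0.0763), in the authors' value table (-1.03, adjusted p = 0.0720) and within slide 1 (adjusted p = 0.336). The fasting changes were -0.81 ± 0.36 in mFoxO-TKO (adjusted p = 0.181) and -0.05 ± 0.36 in WT muscle (adjusted p = 0.945).

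Aldh7a1, a later dehydrogenase of lysine breakdown, had 3.71, 3.64, 3.56 and 3.67 in fasted mFoxO-TKO muscle and 3.73 and 3.68 in fed mFoxO-TKO muscle, where replicates 1 and 2 were left out as uneven. In WT muscle Aldh7a1 had 4.03, 4.21, 4.08 and 4.05 in fasted and 4.02, 3.90, 3.78 and 3.86 in fed mice. All WT arrays lay above all mFoxO-TKO arrays. The difference between fasted groups was -0.45 ± 0.09 (1.36-fold, adjusted p = 0.00579; -0.45 within slide 2, while slide 1 gave no fit) and that between fed groups, -0.19 ± 0.11, did not pass (adjusted p = 0.621). With normexp the difference between fasted groups was -0.32 and did not pass (adjusted p = 0.242). Fasting changed Aldh7a1 by -0.06 ± 0.11 in mFoxO-TKO and by 0.20 ± 0.09 in WT muscle, and neither passed (adjusted p = 0.810 and 0.139).

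With the patch spots left out, the 20 genes that passed in no comparison changed by -0.47 to 0.48 in mFoxO-TKO fasting. In WT fasting they changed by -0.36 to 0.77. Of the 20 genes, 16 had a positive change in each, beside medians of 0.01 and -0.02 over all genes. The share of positive changes over all genes was not counted. Between fasted groups the differences of the 20 genes ran from -0.72 (Dbt) to 0.13 (Bckdk), and between fed groups from -0.85 (Mccc2) to 0.16 (Hsd17b10).

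Other genes of amino acid metabolism were followed in a list of 49, of which 37 were tested. In mFoxO-TKO fasting 1 of the 37 was higher and 3 lower (5.21% and 5.89% of all genes), and in WT fasting 5 were higher and 3 lower (12.6% and 12.3%). Between fasted groups 0 were higher and 2 lower (5.43% and 7.04% of all genes), and between fed groups 0 were higher and 1 lower (0.648% and 0.832%). Of the 8 that carry the branched-chain pathway on (among them the mitochondrial carrier Slc25a44 and the methylmalonyl-CoA mutase Mmut), 0 passed in any comparison by limma (at most 1 at an unadjusted p under 0.05). Cbs, which starts cysteine synthesis from homocysteine, rose in mFoxO-TKO fasting by 1.98 ± 0.34 (adjusted p = 0.00219). Cbs and Cth, the next enzyme, rose in WT fasting by 2.37 ± 0.34 and 1.99 ± 0.38 (adjusted p = 0.00016 and 0.00132), and so did Dhtkd1 of the lysine chain (1.67 ± 0.24), Fah of tyrosine breakdown (1.13 ± 0.32) and the kynurenine aminotransferase gene Kyat3 (0.87 ± 0.21; adjusted p at most 0.0166). Cth and Dhtkd1 were lower in fasted mFoxO-TKO than in fasted WT muscle, by -1.51 ± 0.38 and -1.06 ± 0.24 (adjusted p = 0.0154 and 0.0084), and Shmt1, a serine hydroxymethyltransferase, was lower between the fed groups (-0.62 ± 0.12, adjusted p = 0.015). The proline synthesis gene Aldh18a1 and Kmo of tryptophan breakdown are among those counted as lower in both fasting comparisons. Both were dim, well above background on 2 of 4 arrays in each fasted group, and passed the filter only through fed groups, so no size is given for them.

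Klf15 encodes a transcription factor known for raising genes of branched-chain and proline breakdown in fasted muscle. It had levels of 2.55, 2.57, 2.35 and 2.25 in fasted and 2.16, 1.10, 1.61 and 1.22 in fed mFoxO-TKO muscle. In WT muscle Klf15 had 4.70, 3.90, 4.22 and 3.92 in fasted and 2.08, 2.62, 1.83 and 1.78 in fed mice. Fasted WT arrays lay above all others. It rose by 0.91 ± 0.25 in mFoxO-TKO (1.88-fold, adjusted p = 0.0282) and by 2.11 ± 0.25 in WT fasting (4.32-fold, adjusted p = 2.64e-05), and it was lower in fasted mFoxO-TKO than in fasted WT muscle by -1.76 ± 0.25 (3.38-fold, adjusted p = 0.000236). The interaction, -1.20 ± 0.35, did not pass (adjusted p = 0.101). Atf4, a factor of the amino acid response, changed by 0.46 ± 0.23 in mFoxO-TKO fasting (adjusted p = 0.245) and rose by 0.80 ± 0.23 in WT fasting (adjusted p = 0.0204), and Ppargc1a and Nr3c1 passed in no comparison.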

How the data were processed

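Each mouse gave 1 single-colour Agilent array of quadriceps RNA, with 16 arrays in 4 groups of 4. The deposited intensity values are processed signals that the scanner software, Feature Extraction 11.0.1.1 per the file headers, had background-subtracted and spatially detrended. The submitters' processing notes name version 9.5. The authors' deposited value table holds a score scaled to a 75th percentile of 100 on every array, and it served only as an alternative. Deposited 0 or 1 marks gave the spots well above background and the uneven spots.

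Processed signals were taken to log2, and the 75th percentile over all 59305 spots other than controls was subtracted from each array. Uneven spots were then left out and spots of a probe averaged. A probe was kept if bright enough, by those marks, on all 4 arrays of some group. The brightest kept probe stood for a gene, named through the RefSeq table from the accession in the files (28331 of 55681 probes). Of the 21280 genes tested, 14149 had a symbol and the others entered by their accession or name in the files. limma 3.58.1 (R 4.3.3) fitted 4 group means with lmFit and eBayes, with 5 contrasts and Benjamini-Hochberg adjustment. The fit was tested on simulated data. Beyond 1 array per mouse the labels do not describe the replicates, so p-values measure the spread between these arrays. Their number limits the precision.

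Alternatives were normexp (on median signals, since mean signals are not in the files used here), quantile scaling, other percentiles, filters and probe rules, uneven spots kept, slide and replicate blocks, single slides, the value table, another prior, and each array left out. The percentile over probe means after leaving out uneven spots, and leaving out the patch spots, were added after seeing the data. That percentile differs from the main one in both respects. On fed WT replicate 4, with 0 uneven spots, it was 9.63 in place of 9.87. The members, the lists of other genes and markers, and the motifs were chosen with earlier results of these data known. Of the 32 genes, those that passed in at least 1 comparison are named with every array's value and the rest by counts and ranges, except that Bckdha, Got1, Mccc2 and others are named for their role or a block's result, chosen after their values were seen. Genes outside the 32 are named by their changes. The scanner files name build mm9, and the promoter windows are of GRCm38.p6. No window is printed for Dbt, Gpt and Aldh7a1. Of the other genes counted, 1 that passed is not reported here by name.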

Additional observations from a re-analysis of the deposited data

Results flagged for a closer look

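In 8 of 115 groups of 4 arrays, 1 array of the 32 genes lay far from the other 3, against about 5% of groups by chance. Fed mFoxO-TKO replicate 1 stood high for Bckdhb at 4.84 (4.04 to 4.07 on the other 3 arrays), for Ivd at 5.44 (4.36 to 4.49) and for Aldh6a1 at 5.55 (4.90 to 4.98). Fasted mFoxO-TKO replicate 1 stood low for Dld at -4.17 (4.61 to 5.06), for Ppm1k at -3.69 (7.27 to 7.68) and for Mccc1 at 0.63 (2.30 to 2.31). The spots of Dld and Ppm1k lie in the patch of lost signal on that array, where 41 of 48 bright spots near Dld (85.4%) and 22 of 38 near Ppm1k (57.9%) had lost signal. Fasted WT replicate 3 stood low for Glud1 at 4.85 (5.15 to 5.19), and fasted mFoxO-TKO replicate 3 stood low for Aldh4a1 at 3.84 (4.43 to 4.50).

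The fasting change of Gpt differed between mFoxO-TKO and WT muscle, with an interaction of 1.10 (limma adjusted p = 0.0386). This call was lost in 11 of 16 fits that left out 1 array and in 7 of 14 other settings, among them the replicate number as a block (adjusted p = 0.0747) and uneven spots kept (adjusted p = 0.356).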

How the results depend on the processing

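Counts of the 32 genes that passed are given here for the settings that moved them by over 1.5 times. mFoxO-TKO fasting called 5 genes, and 0 within slide 1. WT fasting called 9, 14 with slide as a block and 0 within slide 1. The fasted groups called 7, 12 with slide as a block, 1 within slide 1, 4 within slide 2, and 4 with the percentile taken after uneven spots were left out. The fed groups called 1, and 0 within either slide. The interaction called 1 (Gpt), and 0 within either slide, with normexp, without a filter on dim probes, with uneven spots kept or with that percentile. It also called 0 in the authors' value table, where 26 of the 32 genes were tested and Gpt was not among them. A single slide holds fewer arrays; otherwise the cause was not tested. Leaving out 1 array gave 4 to 9 genes in mFoxO-TKO fasting, 5 to 11 in WT fasting, 5 to 10 between fasted groups, 1 between fed groups and 0 to 1 in the interaction. Ppm1k turned in WT fasting to -0.60 (adjusted p = 0.00618) over probes well above background on all arrays and to -0.70 (adjusted p = 0.00355) in the value table, since its dimmer probe then stood for it. With the replicate number as a block the fasted groups called 12 and the interaction 0, while the fasting comparisons called 6 in mFoxO-TKO and 13 in WT mice and the fed groups 1. Arrays of different groups were correlated after each gene's group mean was subtracted. Same-numbered arrays then correlated at 0.0556 to 0.392 (median 0.185, 23 of 24 over 0.1). The median was 0.111 for other numbers on the same slide and -0.144 for arrays on the other slide. Deviations from a group mean sum to 0, so positive values are balanced by negative ones and the -0.144 is not separate evidence. As 1 of the 24 was not over 0.1 and the labels give no shared source, the numbers were not taken as pairs. Arrays of the same number also shared a row of arrays on a slide. What the number stands for and position on the slide thus cannot be told apart, here or in the replicate block. Over all genes, 46.9% of mFoxO-TKO fasting calls were higher, against 64.9% with normexp. With the percentile over probes well above background on all arrays and in the value table, the share was 34.5% and 40.4% in WT fasting (50.5% as reported), 59.8% and 56.7% between fasted groups (43.5% as reported) and 50.3% and 49.8% in the interaction (32.9% as reported). The median of all genes moved to -0.13 (percentile) and 0.20 (no filter) in WT fasting. Without that filter the calls over all genes were 1405 in mFoxO-TKO fasting (2362 as reported), 168 between fed groups (315) and 202 in the interaction (465). With slide as a block they were 599 between fed groups and 903 in the interaction (800 with the replicate block), with normexp 176 between fed groups, and with the percentile after uneven spots 244 in the interaction. Within slides 1 and 2 they were 76 and 1344 in mFoxO-TKO fasting, 1280 and 4311 in WT fasting, 432 and 1559 between fasted groups, 128 and 34 between fed groups, and 5 and 43 in the interaction.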
